A study of Mus musculus with 7 samples.

Results

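The expression of 10 genes of the NF-kappaB pathway was examined in 7 mouse lymphoma cell lines. The genes are the 5 subunits (Nfkb1, Nfkb2, Rel, Rela and Relb) and 5 genes whose products hold the pathway back or modify it (Nfkbia, Nfkbib, Nfkbie, Tnfaip3 and Bcl3). They were taken by name from the 27179 genes counted in every library, and all 10 were found. The experiment asked which genes differ between lines with and without Smchd1, which encodes a protein that helps keep chromatin silent.

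The lines came from end-stage lymphomas of male C57BL/6 mice. Every line, control lines included, carried the Eµ-Myc transgene, in which an immunoglobulin heavy chain enhancer drives Myc in B-lineage cells. The wild-type group held 3 lines and the Smchd1 null group 4. The labels give the null genotype as homozygous for a gene trap, whereas the methods of the study write it as Smchd1 MD1/MD1. The labels number the replicates but do not say whether each line came from a separate mouse, so the p-values measure the spread between these lines only. Wild-type replicate 1 was batch 1, with single-end reads, and the other 6 libraries were batch 2, with paired-end reads. Total counts ranged from 3626853 in wild-type replicate 1 to 7519549 in Smchd1 null replicate 4.

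NF-kappaB is a family of transcription factors that act as dimers. In resting cells the dimers are held in the cytoplasm by IkappaB proteins. In the canonical route the IkappaB kinase marks these inhibitors for destruction and frees dimers such as p50 with RelA. In the non-canonical route the p100 precursor made by Nfkb2 is trimmed to p52, which pairs with RelB. Several of the inhibitors are themselves targets of NF-kappaB, so the pathway is known for negative feedback, and B cells depend on it for survival and activation.

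The level of Smchd1 checked the labels. It was 248.1, 230.3 and 218.7 CPM (counts scaled to a common library total) in wild-type replicates 1 to 3 and between 22.65 and 28.73 CPM in the 4 null lines, a log2 fold change of -3.16 (limma, FDR 2.184e-05). Smchd1 null replicate 4 stood apart in most but not all of its B cell markers. Its level of Cd79a was 100.4 CPM, of the B cell transcription factor Pax5 16.62 CPM, of Ebf1 25.53 CPM and of Cd22 25.4 CPM. Each of these was the lowest of the 7 lines, whereas Ptprc was the highest at 429.9 CPM. Cd79b at 302.9 CPM and Ms4a1 at 0.798 CPM lay within the range of the other lines. The 7 B cell markers summed to 901.6 CPM in that line and to between 933.6 and 1579 CPM in the others. Markers of 6 T cell genes summed to at most 0.532 CPM in any line, with Cd3e, Cd8a and Trac at 0. Myeloid markers (6 genes) ranged from 0.296 to 28.11 CPM, NK cell markers (3 genes, Ncr1 and Klrk1 at 0) from 0.321 to 2.527 CPM, fibroblast markers (4 genes, Dcn and Pdgfra at 0) from 0 to 9.375 CPM and plasma cell markers (4 genes) from 41.36 to 155.2 CPM. The highest fibroblast sum was that of wild-type replicate 1, with 20 counts of Col1a1 and 14 of Col1a2. Every other line summed to at most 0.266 CPM for these fibroblast markers. The 4 endothelial markers summed to 223.4 CPM in Smchd1 null replicate 4 and to 47.7 to 95.97 CPM elsewhere. Of that sum Pecam1 made up 219 CPM, and Kdr was at 0 in every line. The part of these markers in the results was not tested. In RNA from a whole line, fewer cells of a type and less RNA per cell cannot be told apart.

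The promoters of the inhibitor and precursor genes are shown first, because NF-kappaB sites in such promoters are the textbook basis of its feedback. Windows of 250 bases before to 50 bases after a transcription start were taken from RefSeq (GRCm38.p6, the same build as mm10) for 8 of the 10 genes. Nfkb1 and Relb had no entry. Each window was searched on both strands for the 10-base kappaB consensus, which reads 3 G, a purine, any base, A or T, a pair of pyrimidines and a pair of C. A match on the opposite strand appears here as its reverse complement, and matches may overlap. The consensus was present in 8 of the 11 windows of these genes, or in 6 of the 8 genes, and in 4.51% of all 32851 windows. A match is only a string of letters and does not show binding, and some windows of Nfkb2 overlap. The windows of Rela and Nfkbib held no match, which says nothing of other positions. Capitals mark the matched bases, and all sequences are written 5′ to 3′ on the strand of the gene. Full windows are given for Nfkb2 (the first of its 3 windows, with the other 2, which hold 2 and 1 matches, not printed) and Nfkbia, the genes called between the genotypes, and for Bcl3, the gene that differed most between lines. They lie at chr19:46304487-46304786 (plus strand), chr12:55492598-55492897 (minus strand) and chr7:19822706-19823005 (minus strand).
Nfkb2: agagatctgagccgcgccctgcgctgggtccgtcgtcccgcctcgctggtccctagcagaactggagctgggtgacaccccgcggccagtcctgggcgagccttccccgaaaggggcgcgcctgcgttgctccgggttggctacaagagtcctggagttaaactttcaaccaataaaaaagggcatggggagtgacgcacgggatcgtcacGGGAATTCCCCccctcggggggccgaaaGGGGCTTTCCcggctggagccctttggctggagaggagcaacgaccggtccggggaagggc
Nfkbia: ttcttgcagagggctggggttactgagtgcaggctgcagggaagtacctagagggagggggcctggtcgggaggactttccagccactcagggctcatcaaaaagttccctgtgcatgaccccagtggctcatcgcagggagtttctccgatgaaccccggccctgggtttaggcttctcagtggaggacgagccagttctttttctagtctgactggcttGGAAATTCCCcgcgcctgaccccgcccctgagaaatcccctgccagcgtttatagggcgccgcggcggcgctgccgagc
Bcl3: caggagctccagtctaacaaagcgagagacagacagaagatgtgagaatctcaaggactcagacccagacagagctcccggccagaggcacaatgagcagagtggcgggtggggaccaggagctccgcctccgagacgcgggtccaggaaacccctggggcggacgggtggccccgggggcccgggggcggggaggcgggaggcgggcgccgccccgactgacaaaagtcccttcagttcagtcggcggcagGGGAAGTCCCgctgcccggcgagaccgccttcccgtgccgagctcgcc

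For the other genes with a match, 30 bases around the first match are given, to let the sites be compared. They come from windows at chr11:23770920-23771219 (Rel, minus strand), chr17:45555450-45555749 (Nfkbie, plus strand) and chr10:19015361-19015660 (Tnfaip3, minus strand).
Rel: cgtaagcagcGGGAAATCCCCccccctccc
Nfkbie: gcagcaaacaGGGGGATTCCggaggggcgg
Tnfaip3: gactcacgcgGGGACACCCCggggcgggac

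Levels of different genes were compared per length, as CPM divided by gene length in kb (CPM per kb), over the 7 lines. The most abundant were Nfkb1, which encodes the p105 precursor of p50, at 36.54 ± 17.99 (SD, n = 7), Rela, which encodes the subunit p65, at 33.63 ± 7.156, and Nfkbia at 26.22 ± 8.666. Nfkb1 was above Rela in only 2 of 7 lines, and without Smchd1 null replicate 4 the mean of Nfkb1 was 30.08 ± 6.166 against 34.95 ± 6.843 for Rela (SD, n = 6). Next came Nfkbib at 17.92 ± 2.246, Nfkb2 at 5.81 ± 2.743 and Rel at 5.442 ± 1.891. Relb, Nfkbie, Bcl3 and Tnfaip3 lay at or below 2.487, and Bcl3 came to 0.1445 without null replicate 4. The order held between some neighbours only. The ranges over the 7 lines overlapped for every neighbouring pair except Nfkbib and Nfkb2, where Nfkbib was higher in 7 of 7 lines. Rel was above Relb in 7 of 7 lines although their ranges overlapped.

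**Figure D1:**
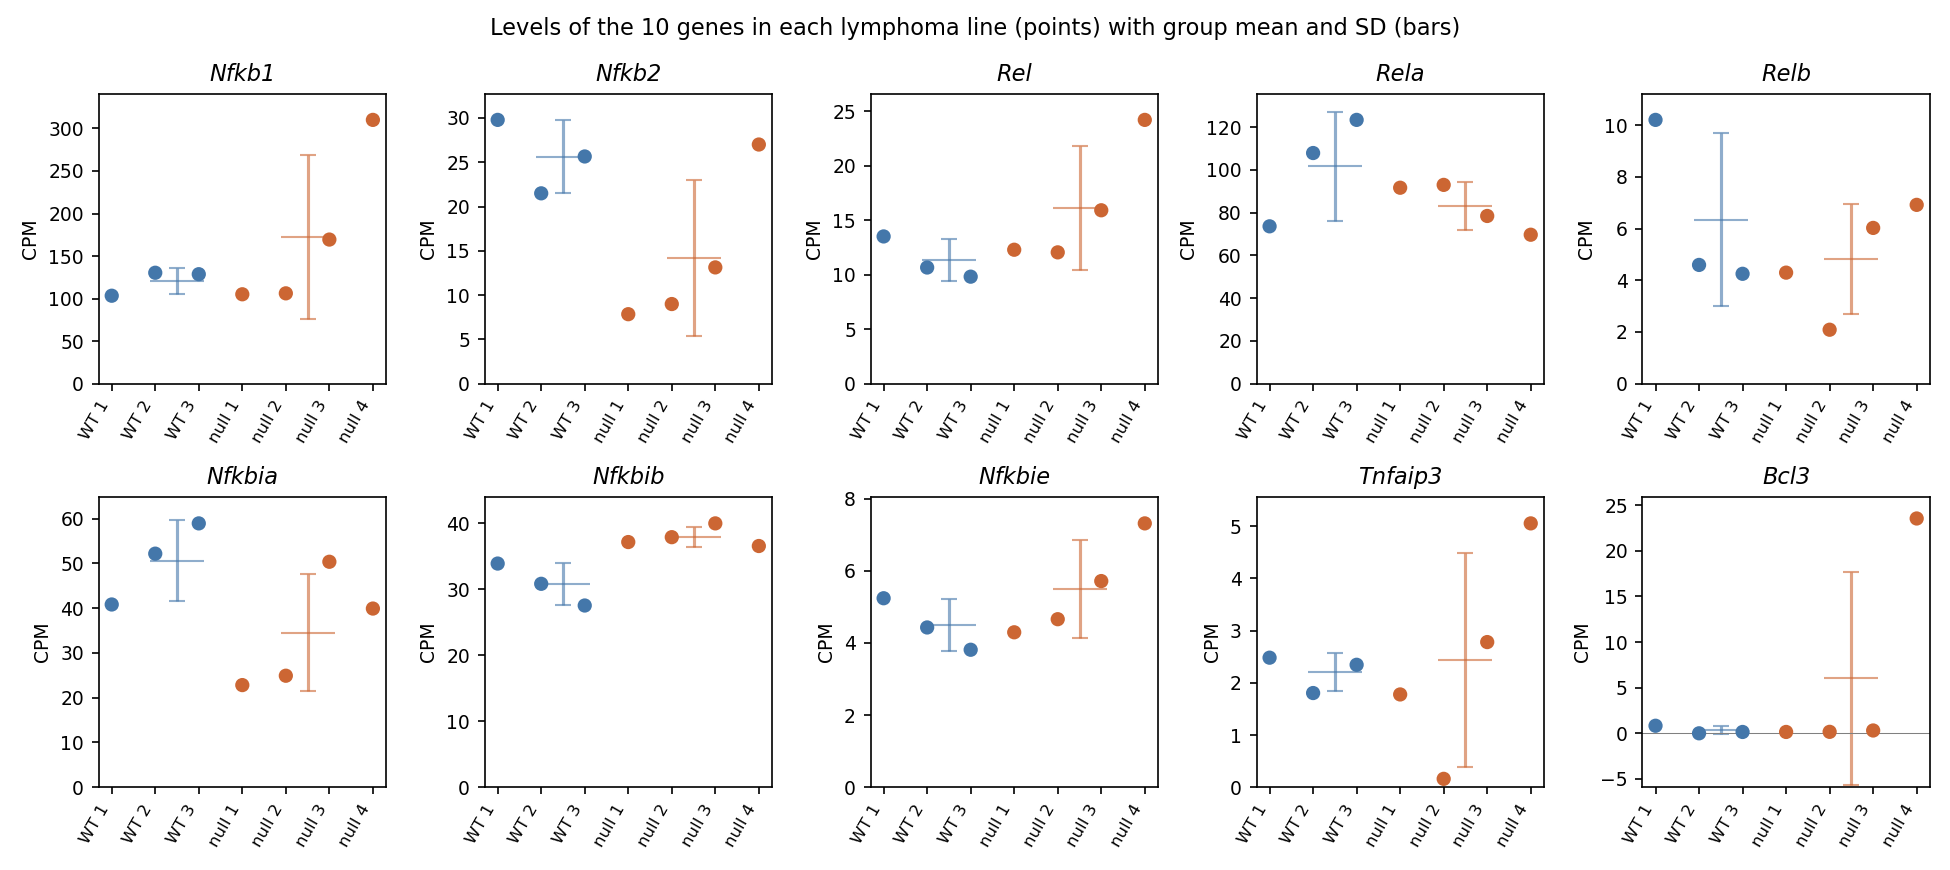
Level of each of the 10 genes in CPM (y axis, linear) in the 3 wild-type lines (blue, WT) and the 4 Smchd1 null lines (orange, null), each point being 1 library and each bar the group mean with its SD. Nfkb2 in null replicates 1 to 3 lies between 7.849 and 13.13 CPM, below every wild-type line, while null replicate 4 lies at 27 CPM, and Bcl3 stands at 23.54 CPM in null replicate 4 alone.

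Nfkb2, the source of p100 and p52 in the non-canonical route, had the lowest limma FDR of the subunit and inhibitor genes tested. This held for the fit with sample weights, and its groups overlapped. It stood at 29.78, 21.49 and 25.65 CPM in wild-type replicates 1 to 3, and at 7.849, 8.995, 13.13 and 27 CPM in Smchd1 null replicates 1 to 4. Null replicates 1 to 3 lay below every wild-type line, and replicate 4 lay inside the wild-type range. In the weighted fit it fell by 1.196 on the log2 scale (SE 0.2473, 95% interval -1.763 to -0.628, limma FDR 0.0243). Without Smchd1 null replicate 4 the change was -1.328 (limma FDR 0.0179). Within batch 2, which leaves out wild-type replicate 1, the change was -1.207 (limma FDR 0.0292). The call was lost on leaving out other lines. Without wild-type replicate 2 or 3 the change was -1.384 or -1.246 (limma FDR 0.685 and 0.724), in fits that called 1 gene over the whole table. Without null replicate 1 or 2 it was -0.897 or -0.906 (limma FDR 0.105 and 0.133). Without sample weights the change was -0.946 (limma FDR 0.424), and in edgeR it was -0.842 (edgeR FDR 0.511). With wild-type replicates 2 and 3 summed it was -1.295 (limma FDR 0.607). That fit also called 1 gene over the whole table.

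The other subunits did not pass the test. Nfkb1 was measured at 103.4, 130.4 and 128.7 CPM in the wild-type lines and at 105.1, 106.2, 169.4 and 310 CPM in the null lines. Null replicates 3 and 4 exceeded every wild-type line, whereas null replicates 1 and 2 lay within the wild-type range. The weighted log2 fold change was -0.03 (95% interval -0.51 to 0.45, limma FDR 0.937), and 0.38 without sample weights, so its direction differed between the fits. The weights were 0.2492 for null replicate 4 and 0.2458 for wild-type replicate 1, against 3.785 and 3.059 for wild-type replicates 2 and 3.

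Rela was at 73.62, 107.9 and 123.4 CPM in the wild-type lines and at 91.67, 93, 78.46 and 69.69 CPM in the null lines, and the groups overlapped (log2 fold change -0.37, 95% interval -0.68 to -0.07, limma FDR 0.0996). Rel, the c-Rel subunit of lymphocytes, was at 13.51, 10.66 and 9.82 CPM against 12.29, 12.05, 15.91 and 24.2 CPM (log2 fold change 0.39, 95% interval -0.04 to 0.82, limma FDR 0.192). Relb, the partner of p52, was at 10.2, 4.593 and 4.25 CPM against 4.295, 2.088, 6.024 and 6.915 CPM (log2 fold change -0.34, 95% interval -1.18 to 0.51, limma FDR 0.569). For Rel the highest line was null replicate 4, and for Relb it was wild-type replicate 1. The groups overlapped for both.

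Among the inhibitors, Nfkbia was lower in null lines and Nfkbib had a fold change of the opposite sign that did not pass the test. Nfkbia encodes IkappaBalpha, the inhibitor that is rapidly resynthesised after activation. It stood at 40.81, 52.16 and 58.92 CPM in wild-type lines and at 22.81, 24.9, 50.35 and 39.9 CPM in null lines. Null replicates 1 and 2 lay well below every wild-type line, while replicate 3 lay inside the wild-type range and replicate 4 just under it, so the groups overlapped. In the weighted fit Nfkbia fell by 0.899 on the log2 scale (SE 0.2222, 95% interval -1.41 to -0.39, limma FDR 0.0382), and was -0.74 and -0.65 without wild-type replicates 2 and 3 (FDR 0.897 and 0.870) and -0.52 and -0.53 without null replicates 1 and 2 (FDR 0.227 and 0.251). The change was -0.63 without sample weights (limma FDR 0.486) and -0.55 in edgeR (edgeR FDR 0.556). With wild-type replicates 2 and 3 summed it was -0.73 (limma FDR 0.872).

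Nfkbib, which encodes IkappaBbeta, was the steadiest of the genes. It was measured at 33.91, 30.84 and 27.55 CPM in wild-type lines and at 37.17, 37.91, 40 and 36.57 CPM in null lines. Each null line lay above each wild-type line, and this was the only gene of the 9 tested for which the groups did not overlap, as against 13.2% of all genes tested. The log2 fold change was 0.37 (SE 0.1054, 95% interval 0.13 to 0.61) and did not pass the threshold (limma FDR 0.0566). The SD was 3.947% of the mean in null lines and 10.34% in wild-type lines.

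Nfkbie, which encodes IkappaBepsilon, was at 5.239, 4.429 and 3.811 CPM in wild-type lines and at 4.295, 4.658, 5.715 and 7.314 CPM in null lines (log2 fold change 0.24, 95% interval -0.28 to 0.76, limma FDR 0.507). Tnfaip3 encodes A20, a ubiquitin-editing enzyme that shuts off upstream signalling. It was at 2.481, 1.804 and 2.345 CPM against 1.777, 0.161, 2.78 and 5.053 CPM (log2 fold change -1.18, 95% interval -2.94 to 0.57, limma FDR 0.324). Null replicate 2 held 1 count of Tnfaip3 and null replicate 4 held 38, so the interval was wide.

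Bcl3 encodes an IkappaB-like protein that works in the nucleus with p50 and p52. It had 3, 0 and 1 counts in wild-type replicates 1 to 3 and 1, 1, 2 and 177 counts in null replicates 1 to 4. A single line carried nearly all of its reads, at 23.54 CPM against 0.309 CPM in the null line next below. Bcl3 did not pass the filter on low counts and was not tested in the main fit. The wild-type lines lay at or under the floor of 3 counts.

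Across the 9 genes tested, 0 were called higher and 2 lower in Smchd1 null lines at an FDR under 0.05 in limma. Of all 12303 genes tested, 5.06% were called higher and 6.85% lower. At an unadjusted p under 0.05, 4 of the 9 passed, against 31.8% of all genes tested. In edgeR 0 were called and 0 passed at the unadjusted level, where 11.5% of all genes tested passed. In DESeq2 0 were called and 1 passed, where 12.8% of all genes tested passed. The median log2 fold change of the 9 genes was -0.34, beside -0.01 over all genes tested. The count of genes called over the whole table was 1466 with sample weights, 12 without them, and 521 without them after removal of wild-type replicate 1 and null replicate 4. In that last fit Nfkb2 was still called, with a change of -1.277 (limma FDR 0.0488), and Nfkbia was not (limma FDR 0.170).

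**Figure D2:**
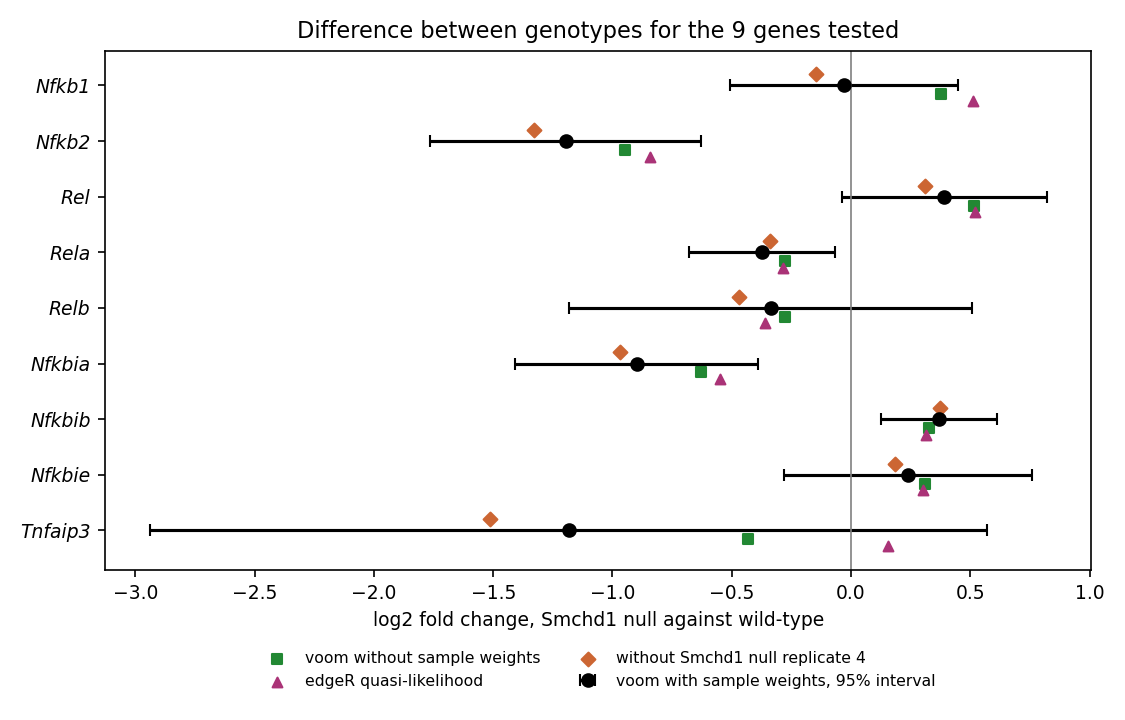
Log2 fold change of Smchd1 null against wild-type (x axis) for the 9 genes tested, with black points and bars for the weighted fit and its 95% interval. Green squares (no sample weights), purple triangles (edgeR) and orange diamonds (without null replicate 4) show that Nfkb2 and Nfkbia stay below 0 in these 4 fits, while Nfkb1 and Tnfaip3 lie on either side of it.

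Several of the genes lie on chromosomes whose median level differed between lines. On chromosomes 19 and 12 wild-type replicate 1 lay with the null lines. Without it, every null line lay below every wild-type line on both chromosomes. On chromosome 19, which carries Nfkb2 and Rela, the median log2 fold change of 433 tested genes was -0.56. It was -0.44 over 557 genes on chromosome 3, which carries Nfkb1, and -0.28 over 444 genes on chromosome 12, which carries Nfkbia. On chromosome 19 the median log2 level, relative to the mean of the lines, was 0.35 and 0.503 in wild-type replicates 2 and 3, and -0.137 in wild-type replicate 1, within the -0.204 to -0.107 of the null lines. On chromosome 12 it was likewise 0.304 and 0.134 in wild-type replicates 2 and 3 and between -0.122 and -0.0379 in the other 5 lines. On chromosome 3 it was -0.375 and -0.41 in null replicates 1 and 2, and 0.119 and 0.0709 in null replicates 3 and 4. The wild-type lines lay above all of these, between 0.152 and 0.252. Relative to the median of its chromosome, the log2 fold change was -0.64 for Nfkb2, -0.62 for Nfkbia, 0.18 for Rela and 0.41 for Nfkb1. Nfkb2 and Nfkbia thus lay below their chromosomes, and Rela and Nfkb1 above. The part of these shifts in the results was not tested.

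The make-up of the subunit pool was described per length, with each subunit as a percent of the 5 summed. Nfkb2 made up 12.71%, 7.748% and 8.626% of the pool in wild-type replicates 1 to 3 and 3.483%, 3.991%, 4.806% and 6.738% in null replicates 1 to 4. Every null line lay below every wild-type line, which was not so for the CPM of Nfkb2. The share of null replicate 4 is also lowered by its high Nfkb1. Nfkb1 made up between 34.6% and 37.66% in the wild-type lines and null replicates 1 and 2, and 49.58% and 61.85% in null replicates 3 and 4. Rela made up 50.15% in null replicate 2 and 21.14% in null replicate 4.

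The 2 precursor genes were also set against each other, a ratio chosen after the values were seen and given with no test. Nfkb1 over Nfkb2 was 2.776, 4.851 and 4.011 in wild-type lines and 10.71, 9.436, 10.32 and 9.18 in null lines. The mean was 3.879 ± 1.044 (SD, n = 3) in wild-type and 9.91 ± 0.7218 (SD, n = 4) in null lines. In null replicate 4 the ratio came from a high Nfkb1 (75.28 CPM per kb), since its Nfkb2 (8.201 CPM per kb) lay within the wild-type range of 6.527 to 9.046. In null replicates 1 and 2 Nfkb2 was low (2.384 and 2.732) and Nfkb1 (25.53 and 25.78) lay within the wild-type range. In null replicate 3 Nfkb1 (41.14) lay above every wild-type line and Nfkb2 (3.988) lay below every wild-type line. The genes lie on chromosomes 3 and 19. The median log2 level of chromosome 3 minus that of chromosome 19 was 0.389, -0.184 and -0.351 in wild-type lines. It was -0.268, -0.267, 0.293 and 0.275 in null lines. The part of this chromosome difference in the ratio was not tested. The inhibitors Nfkbia, Nfkbib and Nfkbie together, over the 5 subunits, were 0.6384, 0.602 and 0.5874 in wild-type lines and 0.516, 0.5431, 0.6605 and 0.3869 in null lines. These groups overlapped, and null replicate 4 was the lowest.

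**Figure D3:**
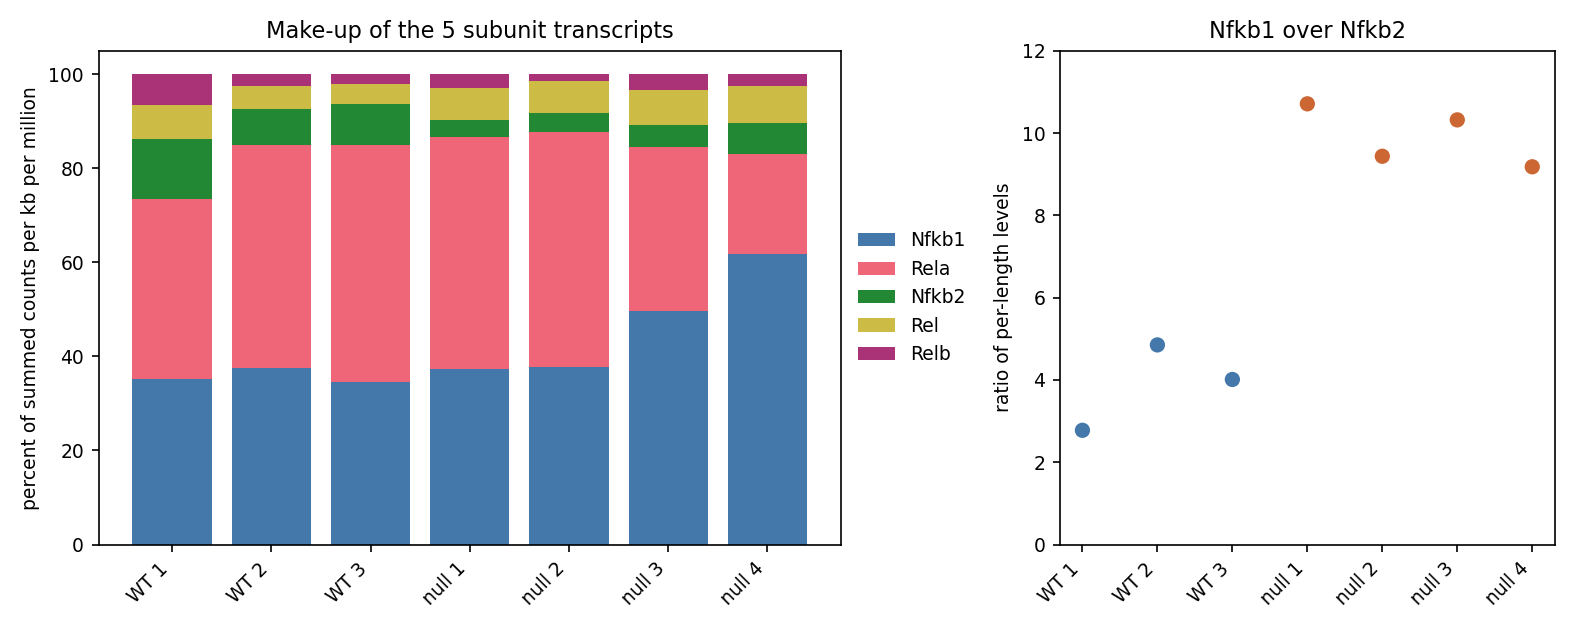
Left, each of the 5 subunits as a percent of their summed CPM per kb (counts per kb of gene length, scaled as CPM) in each line, in stacked bars; right, the ratio of Nfkb1 to Nfkb2 per length, with wild-type lines (WT) in blue and Smchd1 null lines (null) in orange. Nfkb2 makes up 7.748% or more in wild-type lines and 6.738% or less in null lines, and the ratio is at most 4.851 in wild-type and at least 9.18 in null lines.

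Smchd1 null replicate 4 was the line with the highest level of Nfkb1, Rel, Nfkbie, Tnfaip3 and Bcl3, and the lowest level of Rela. Its level was 1.83 times that of the next line for Nfkb1, 1.818 times for Tnfaip3, 1.521 times for Rel and 1.28 times for Nfkbie. For Bcl3 it was 28.46 times the next line, wild-type replicate 1 with 3 counts, with a counting interval of 9.58 to 139.3. It was the highest line for 4 of the 9 genes tested and for 28 of 65 tested genes of the wider pathway, against 23.8% of all genes tested. It was at least 2-fold above the next line for 0 of the 9 and for 8 of the 65, against 4.27% of all genes tested.

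The 8 were Nfkbiz, Tnip1, Prkcb, Tnfrsf13b, Ltb, Cd80, Cd86 and Il2ra, named after their values were seen. Cd80 and Cd86 each reached 0.5 CPM in only 3 lines, with null replicate 4 among them. They thus passed the filter only through the line in which they are high, and the same filter applied to all genes tested. Nfkbiz, which encodes the nuclear inhibitor IkappaBzeta, was at 456.5 CPM in Smchd1 null replicate 4 and at 4.016 to 15.16 CPM elsewhere. Tnip1, which encodes a partner of A20, was at 107.1 CPM, 4.463 times the next line. Ltb, a ligand of the non-canonical route, was at 9.309 CPM against at most 0.879 CPM, and the costimulatory gene Cd80 was at 37.64 CPM against at most 3.554 CPM. Nfkbiz, Cd80 and Cd86 lie on chromosome 16, whose median log2 level in null replicate 4 was 0.358 above the mean of the lines, and its part in these values was not tested. Among genes outside the filter, named in the same way, the cytokine gene Il10 had 293 counts there and 0 in the other 6 lines, at least 47.11-fold above the floor of 3 counts in a library. The receptor gene Tnfrsf1a had 85 counts there and 2 or fewer elsewhere. Not every regulator followed. Nfkbid, an IkappaB-like gene also picked after its values were seen, was at 7.713 CPM in null replicate 4 and highest, at 19.15 CPM, in null replicate 3.

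**Figure D4:**
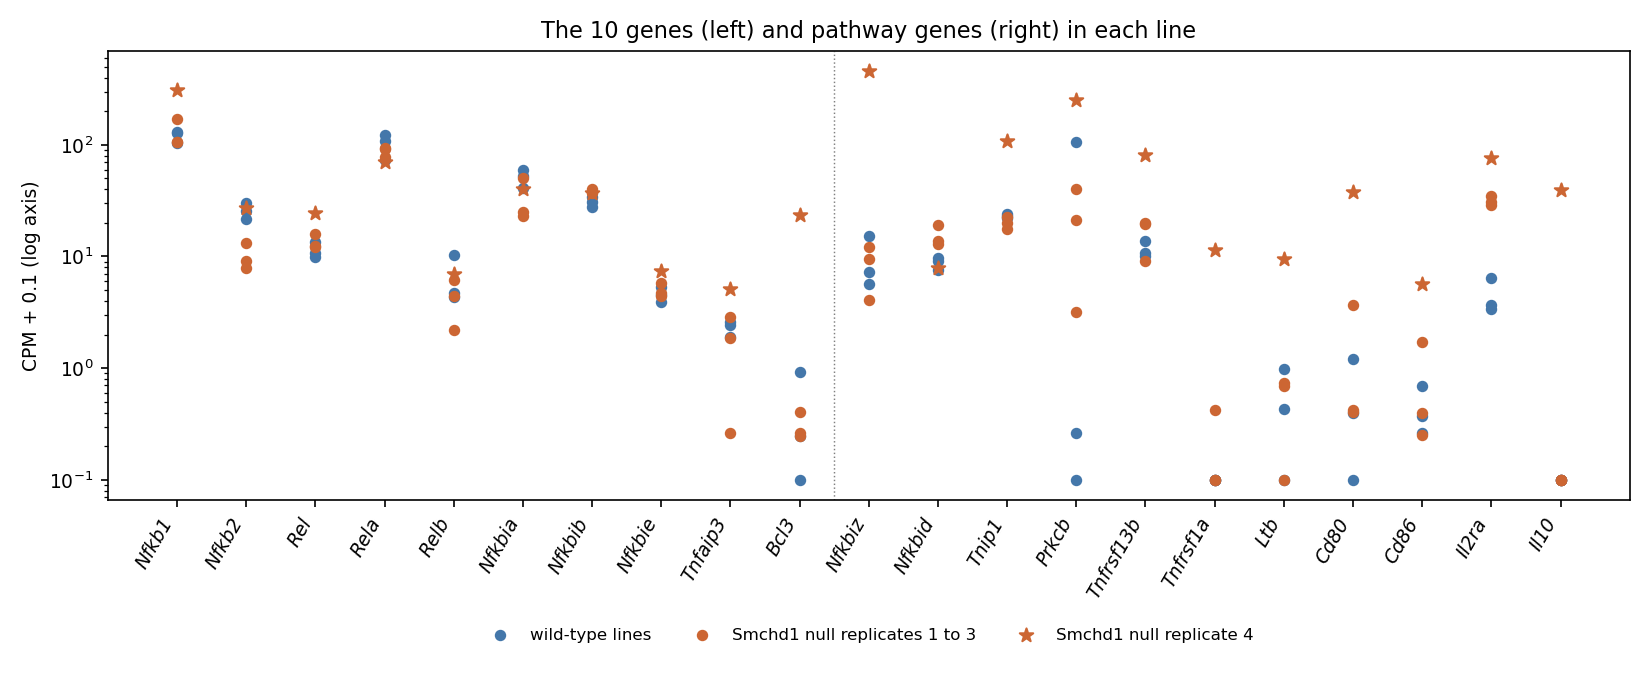
Level of the 10 genes (left of the dotted line) and of pathway genes, most of them chosen for their high value in null replicate 4 (right), in each of the 7 lines, as CPM + 0.1 on a log axis, with stars for Smchd1 null replicate 4 and circles for the other null (orange) and wild-type (blue) lines. Null replicate 4 is at 23.54 CPM for Bcl3, 456.5 CPM for Nfkbiz and 38.97 CPM for Il10, above every other line, and it is the lowest line for Rela.

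The wider pathway was described with 5 lists of 94 genes, of which 65 passed the filter. In limma 7 were called higher and 5 lower in null lines, with a median log2 fold change of 0.05. These are 10.8% and 7.69% of the 65, beside 5.06% and 6.85% of all genes tested. Of the 14 other IkappaB and feedback regulators 1 was higher and 2 were lower, and of the 26 kinases and adaptors 3 were higher and 2 lower. Of the 17 receptors 9 were tested, with 1 higher and 1 lower, and of the 28 target genes 15 were tested, with 2 higher and 0 lower. Of 9 ligand genes only Ltb was tested, and it was not called. Lta, Cd40lg, Tnfsf11 and Il1b had 0 counts in every line.

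Over the 65 genes, the groups did not overlap for 9, or 13.8%, beside 13.2% of all genes tested, and 5 of the 9 were also called. Il2ra, which encodes the interleukin 2 receptor alpha chain and is a known target, rose in null lines, with a mean of 42.7 ± 22.9 CPM (SD, n = 4) against 4.406 ± 1.649 CPM in wild-type lines (SD, n = 3) and a log2 fold change of 2.84 (limma FDR 0.00408). Irak4 and Myd88, which carry signals from Toll-like receptors, rose by 0.68 and 0.64 on the log2 scale (limma FDR 0.0382 and 0.0109). Otulin, which encodes a deubiquitinase that removes linear ubiquitin chains, rose by 0.47 (limma FDR 0.0368). Irak4 and Otulin lie on chromosome 15, whose median log2 level in null replicate 4 was 0.405 above the mean of the lines, and were highest in that line. Otud7b, another deubiquitinase, fell by 0.985 (limma FDR 0.0107), on chromosome 3. The part of these chromosome shifts in the results was not tested. The other 7 called genes overlapped between groups and were named after their values were seen. Traf2, Tnfrsf13c and Icam1 were higher, and Tnip2, Chuk, Tab3 and Tlr2 were lower. Chuk encodes the kinase subunit IKKalpha of the non-canonical route and fell by 0.747 (limma FDR 0.0287), on chromosome 19. The count of 12 was 0 without sample weights, 0 in edgeR and 3 in DESeq2. At an unadjusted p under 0.05 the counts were 26 in the weighted fit, 9 without weights, 10 in edgeR and 14 in DESeq2, beside 31.8%, 11.3%, 11.5% and 12.8% of all genes tested in the same fits. These are 40%, 13.8%, 15.4% and 21.5% of the 65. The count of pathway genes called was 0 without wild-type replicate 2 or 3, 3 without null replicate 2 and 5 without null replicate 3. In the same fits 1, 1, 281 and 923 of all genes were called. The pathway count was 11 without wild-type replicate 1, 8 without null replicate 1 and 10 without null replicate 4. In those fits 1683, 443 and 1374 of all genes were called.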

How the data were processed

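Gene expression was measured by RNA-seq in 3 wild-type and 4 Smchd1 null lymphoma lines. Per the labels and the study's methods, the authors aligned reads to mm10 with Subread and summarised them with featureCounts. The deposited values are raw counts per Entrez gene, not normalised and not pooled, beside a gene length column. The treatment of multi-mapping reads and of strand is not given in the sources used here. The submitters' processing notes also name CASAVA (version 1.8.2), edgeR (version 3.8.2) and limma (version 3.22.0).

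Entrez identifiers were matched to RefSeq symbols, which were found for 25275 of 27179 genes, holding 98.24% of counts. CPM used the total count of each library. A floor of 3 counts was 0.399 to 0.827 CPM, and floors and counting intervals (95%) cover counting error only. Following the study's methods, a gene was kept when 3 or more samples reached 0.5 CPM (12303 genes), and counts were normalised by TMM and fitted with voomWithQualityWeights, lmFit and eBayes in limma (version 3.58.1, R 4.3.3), with Benjamini-Hochberg adjustment over all genes tested and an FDR threshold of 0.05. The scripts were tested on simulated data. Alternatives were voom alone, removal of the more variable pair, edgeR (version 4.0.16), DESeq2 (version 1.42.0), relative log expression, 2 other filters, each replicate left out, a replicate block, batch, and wild-type replicates 2 and 3 summed. Counts of these last replicates differed by more than sampling noise (chi-square per degree of freedom 3.794). They differed by less than any other pair within either group, where the values ran from 17.24 to 61.17.

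The members and gene lists were chosen with earlier results of these data known. Genes named are the 10 members, Smchd1, cell type markers, and, of each pathway list, at most the 5 of largest change in each direction among called genes whose groups did not overlap. Others are named as chosen after their values were seen. The result of 1 marker gene is not reported here.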

Additional observations from a re-analysis of the deposited data

Results flagged for a closer look

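Of 23 values screened over the 4 Smchd1 null lines, 8 had a sample far from the others of the group, and in each case it was replicate 4. Chance flags about 1 in 20 groups, or 1.1 of 23, and the pathway genes outside the 10 were largely screened because they were high in that line. Of the 10 genes described here only Bcl3 stood out, at 23.54 CPM in replicate 4 and 0.148 to 0.309 CPM in the other null lines.

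Among the other genes, replicate 4 was at 456.5 CPM for Nfkbiz (4.016 to 12.14 CPM in the other null lines), 107.1 CPM for Tnip1 (17.67 to 22.51), 253.3 CPM for Prkcb (3.052 to 40) and 80.72 CPM for Tnfrsf13b (9.034 to 19.77). It was at 76.87 CPM for Il2ra (29.04 to 34.53), 37.64 CPM for Cd80 (0.309 to 3.554) and 38.97 CPM for Il10, which was at 0 in the others.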

How the results depend on the processing

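The count of genes called among the 10 was 2, and it was 0 in voom without sample weights, edgeR, DESeq2 and the fit with wild-type replicates 2 and 3 summed, and 1 after removal of the more variable pair or with no filter. Leaving out each replicate gave 0 to 2. The pathway count was 12, and 0, 0, 3, 0 and 6 under voom without sample weights, edgeR, DESeq2, the summed replicates and pair removal, with 0 to 11 on leaving out a replicate. Over all genes the count was 1466, and 12, 12, 384, 1 and 521 in the same order, with 1 to 1683 on leaving out a replicate. The replicate block gave 0, 1 and 222 calls for the 10 genes, the pathway and all genes, but the replicate numbers did not pair the samples, since same-numbered deviations correlated at -0.154, 0.224 and -0.206.

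Of 152 fold changes of the 9 tested genes under the alternatives, 120 kept direction and side of the threshold, 20 lost the call and 12 changed sign. All 20 lost calls were of Nfkb2 and Nfkbia, the only genes with a call to lose. Each lost it in most of the alternatives. Nfkb1 changed sign in voom without sample weights (0.38), edgeR (0.51), DESeq2 (0.51) and with the summed replicates (0.14), and ranged from -0.17 to 0.30 on leaving out a replicate. Tnfaip3 was 0.16 in edgeR and 0.16 in DESeq2. On leaving out a replicate it ranged from -1.57 to 0.36 and Relb from -0.82 to 0.29, with the positive values without null replicate 2 only. The cause was not tested. With no filter, Bcl3 had a log2 fold change of 1.39 (limma FDR 0.392). Depth limits Bcl3 and Tnfaip3, which had under 20 counts in most lines.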

Other observations

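Prkcb, which encodes a kinase that links the B cell receptor to NF-kappaB, varied widely within both groups. Wild-type replicate 1 held 106.7 CPM, but there were 1 and 0 counts in wild-type replicates 2 and 3, and in null replicates 1 to 4 it was at 21.03, 3.052, 40 and 253.3 CPM. Ccr7, a chemokine receptor gene and NF-kappaB target, was at 27.02, 120.1 and 146.7 CPM in wild-type lines and at 160.2, 60.87, 45.1 and 14.23 CPM in null lines. Wild-type replicate 1 and null replicate 4 were the highest lines for Prkcb and the lowest for Ccr7. Both genes were picked after their values were seen, and neither was called between the genotypes (limma FDR 0.115 for Prkcb and 0.251 for Ccr7).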
